A study of Mus musculus with 31 samples.

Results

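Nuclear-encoded genes of oxidative phosphorylation were taken from the count table of a mouse cardiac fibroblast series by symbol: subunits of complex I (Nduf), complex II (Sdh), complex III (Uqcr), complex IV (Cox4 to Cox8) and complex V (Atp5), with the Uqcc and Sdhaf assembly factors. The rule took 91 of 24421 genes and used no measured value. They comprised 35 genes of complex I, 4 of complex II, 8 of complex III, 20 of complex IV, 15 of complex V, 7 assembly factors and 2 further matches to the pattern, Atp5s and Atp5sl, which name no subunit. Of these, 87 passed the filter on low counts and were tested. Cox7b2 (1 read in all libraries), Cox8b (90 reads), Cox8c and Ndufs5 (no read in any library) did not pass.

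Cardiac fibroblasts from C57Bl/6 mice aged 8 to 12 weeks were cultured without a stated treatment, and the series asks how gene expression differs between their topological states, labelled 2D or 3D. There were 10 groups in 29 RNA libraries: 3D-2D-3D, 3D-2D-2D, 3D-2D, 3D and 2D, the pair 3D-5days and 2D-5days, and 3 groups on substrates of stated stiffness, called 2D-0.5kPa, 2D-8kPa and finally 2D-64kPa, with 3 libraries each except 3D-2D, which had 2. The longer labels were read as the order of the states. The time in each state, the substrate material and how many mice gave a library are not stated, nor whether a group's libraries were separate cultures, so the p-values measure the spread between libraries, which may be technical. Fibroblast markers (11 genes such as Col1a1, Pdgfra and Dcn) summed to between 17530 and 75950 CPM (counts scaled to a common library size) in every library, though not evenly: they summed to 18760 to 26060 CPM in 3D-2D-3D, 69810 to 75950 CPM in 3D-2D-2D, 19860 to 20020 CPM in 3D-2D, 23830 to 38440 CPM in 3D and 18610 to 40480 CPM in 2D. The 2 chromatin accessibility samples were not analysed here.

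Oxidative phosphorylation takes electrons from NADH at complex I and from succinate at complex II, passes them by ubiquinone to complex III and by cytochrome c to complex IV, which reduces oxygen, and uses the resulting proton gradient at complex V to make ATP. Most subunits are encoded in the nucleus and are assembled with a small set made in the mitochondrion. Several complex IV subunits exist as alternative isoforms, with one form in most tissues and another in heart and skeletal muscle, lung or testis, and cardiac fibroblasts share their tissue with cardiomyocytes, which are rich in mitochondria. Nuclear respiratory factor 1 (Nrf1), ETS-family factors, Yy1 and the estrogen-related receptors are known to bind at promoters of many of these genes, and the coactivator Ppargc1a works with several of them.

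Promoters of 6 members are shown because these genes carry the patterns described below: Atp5g3, Cox6a1 and Ndufs4, which were lower in 3D-2D-3D than in 3D-2D, Ndufa6, which was higher there, and the muscle isoforms Cox7a1 and Cox8b. The sequences are from RefSeq (GRCm38.p6), each 300 bases long, with 250 bases before and 50 after the annotated start, written in the direction of the gene. They lie at chr2:73911277-73911576 (minus strand, Atp5g3), chr5:115348909-115349208 (minus, Cox6a1), chr13:114388045-114388344 (minus, Ndufs4), chr15:82354242-82354541 (minus, Ndufa6), chr7:30183921-30184220 (plus, Cox7a1) and chr7:140900397-140900696 (minus, Cox8b). Capitals mark matches on either strand to 5 motifs, named NRF1, ETS, YY1, ERR and TATA and given with their letters after the sequences.
Atp5g3: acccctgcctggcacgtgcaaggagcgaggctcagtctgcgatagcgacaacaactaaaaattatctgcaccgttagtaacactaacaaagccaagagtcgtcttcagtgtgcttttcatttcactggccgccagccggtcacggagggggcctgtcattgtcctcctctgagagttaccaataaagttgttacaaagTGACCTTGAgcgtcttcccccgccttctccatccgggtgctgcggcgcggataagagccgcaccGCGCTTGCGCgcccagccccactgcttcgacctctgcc
Cox6a1: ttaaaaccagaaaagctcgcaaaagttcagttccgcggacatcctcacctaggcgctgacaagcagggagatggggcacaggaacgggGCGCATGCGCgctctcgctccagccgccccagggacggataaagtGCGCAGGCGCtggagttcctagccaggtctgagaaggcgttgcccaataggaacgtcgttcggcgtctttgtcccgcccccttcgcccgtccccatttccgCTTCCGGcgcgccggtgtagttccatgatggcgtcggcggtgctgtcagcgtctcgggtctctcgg
Ndufs4: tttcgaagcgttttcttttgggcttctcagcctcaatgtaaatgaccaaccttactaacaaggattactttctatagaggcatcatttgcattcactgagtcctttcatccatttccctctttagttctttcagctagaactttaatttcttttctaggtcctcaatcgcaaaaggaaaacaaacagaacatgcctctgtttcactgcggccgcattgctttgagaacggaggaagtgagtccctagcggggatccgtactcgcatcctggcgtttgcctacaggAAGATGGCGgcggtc
Ndufa6: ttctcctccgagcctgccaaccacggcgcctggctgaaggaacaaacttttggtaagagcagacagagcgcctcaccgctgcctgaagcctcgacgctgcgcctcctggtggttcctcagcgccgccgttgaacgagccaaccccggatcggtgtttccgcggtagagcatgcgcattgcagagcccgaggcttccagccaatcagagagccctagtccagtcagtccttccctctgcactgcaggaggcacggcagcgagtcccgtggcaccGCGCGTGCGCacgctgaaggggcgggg
Cox7a1: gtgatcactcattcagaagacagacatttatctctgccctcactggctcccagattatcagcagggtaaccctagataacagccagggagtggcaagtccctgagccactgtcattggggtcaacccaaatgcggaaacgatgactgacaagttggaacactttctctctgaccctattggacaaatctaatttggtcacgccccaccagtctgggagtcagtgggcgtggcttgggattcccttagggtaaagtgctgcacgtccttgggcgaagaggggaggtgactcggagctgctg
Cox8b: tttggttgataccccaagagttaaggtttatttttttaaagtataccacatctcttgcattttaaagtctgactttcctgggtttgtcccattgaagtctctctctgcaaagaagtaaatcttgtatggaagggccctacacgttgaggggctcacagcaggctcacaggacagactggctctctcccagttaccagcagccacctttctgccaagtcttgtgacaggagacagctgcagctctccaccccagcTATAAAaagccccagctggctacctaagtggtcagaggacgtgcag

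A promoter entry was matched for 76 of the 91 members. The NRF1 motif, the palindromic site of that factor with its centre base left free, was in 20 of them (26.3%), against 5.19% of all 27025 promoters in the table. The ETS motif CCGGAAG was in 19 members (25%, against 9.93% of all genes with an entry). The YY1 motif AAGATGGCG, which can share its first 3 letters with an ETS match, was in 8 members (10.5%, against 1.64%). The ERR motif TCAAGGTCA was in 2 members, Atp5g3 and Sdhd (2.63%, against 0.466%). The TATA motif TATAAA was in 8 members (10.5%, against 15.7%). Among the 6 promoters shown, Cox6a1 had 2 NRF1 matches and 1 ETS match, Atp5g3 had an NRF1 and an ERR match, Ndufa6 an NRF1 match, Ndufs4 a YY1 match and Cox8b a TATA match, and Cox7a1 had no match to these letters. A match describes the letters and says nothing of binding.

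The libraries held 8509987 to 29909400 reads counted to genes, and the members took 0.482% to 0.623% of them. Libraries within a group were not equally alike. In the 4 groups 3D-2D-3D, 3D-2D, 3D and 2D, the libraries numbered 1 and 2 had Xist reads and at most 7 Y-linked reads. The third library of those groups that have one had both, as did the libraries of 5 days and of 3D-2D-2D, and the substrate libraries had Y-linked reads and at most 7 Xist reads. In 3D, log2 CPM values of single genes differed with an SD of 0.28 for replicates 1 and 2 and of 0.966 to 1.06 for either of them and replicate 3. Values within these sets of libraries are given where they change a result. Between 13.991% and 28.351% of reads were set aside because they did not align to 1 place. Many of these genes have processed pseudogenes, and what this set aside from the members was not tested.

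Across the 10 groups the levels of these genes varied little. The ratio of the highest to the lowest group mean had a median of 1.45 over the 87 tested members, against 2.29 over all 14036 genes tested. It was under 2 for 80 of the 87 members (92%) and for 40.4% of all genes tested. The 7 exceptions were Ndufa4l2, Cox6a2, Cox7a1, Cox4i2, Cox6b2, Ndufv3 and Atp5sl, of which 5 are alternative isoforms described apart below. Among the members with the smallest ratios were the complex II membrane anchors Sdhc (1.19) and Sdhd (1.22). Within that narrow range, 3D-2D had the highest group mean for 44 of the 87 members and 3D-2D-3D the lowest for 45. The same shares over all genes were not computed, so these counts do not set the members apart from other genes. The 3D-2D mean rests on 2 libraries. The summed level of the members was 4899, 4698 and 5075 CPM in the 3D-2D-3D libraries, 5555, 5767 and 5428 CPM in 3D-2D-2D, 6282 and 6230 CPM in 3D-2D, 5199, 5218 and 5064 CPM in 3D, and 5445, 5878 and 5426 CPM in 2D. The 3D-2D libraries lay above all libraries of the other 4 groups. The 3D-2D-3D libraries lay below those of 3D-2D-2D, 3D-2D and 2D and overlapped those of 3D. In bulk RNA, fewer cells of a type and less RNA per cell cannot be told apart.

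**Figure D1:**
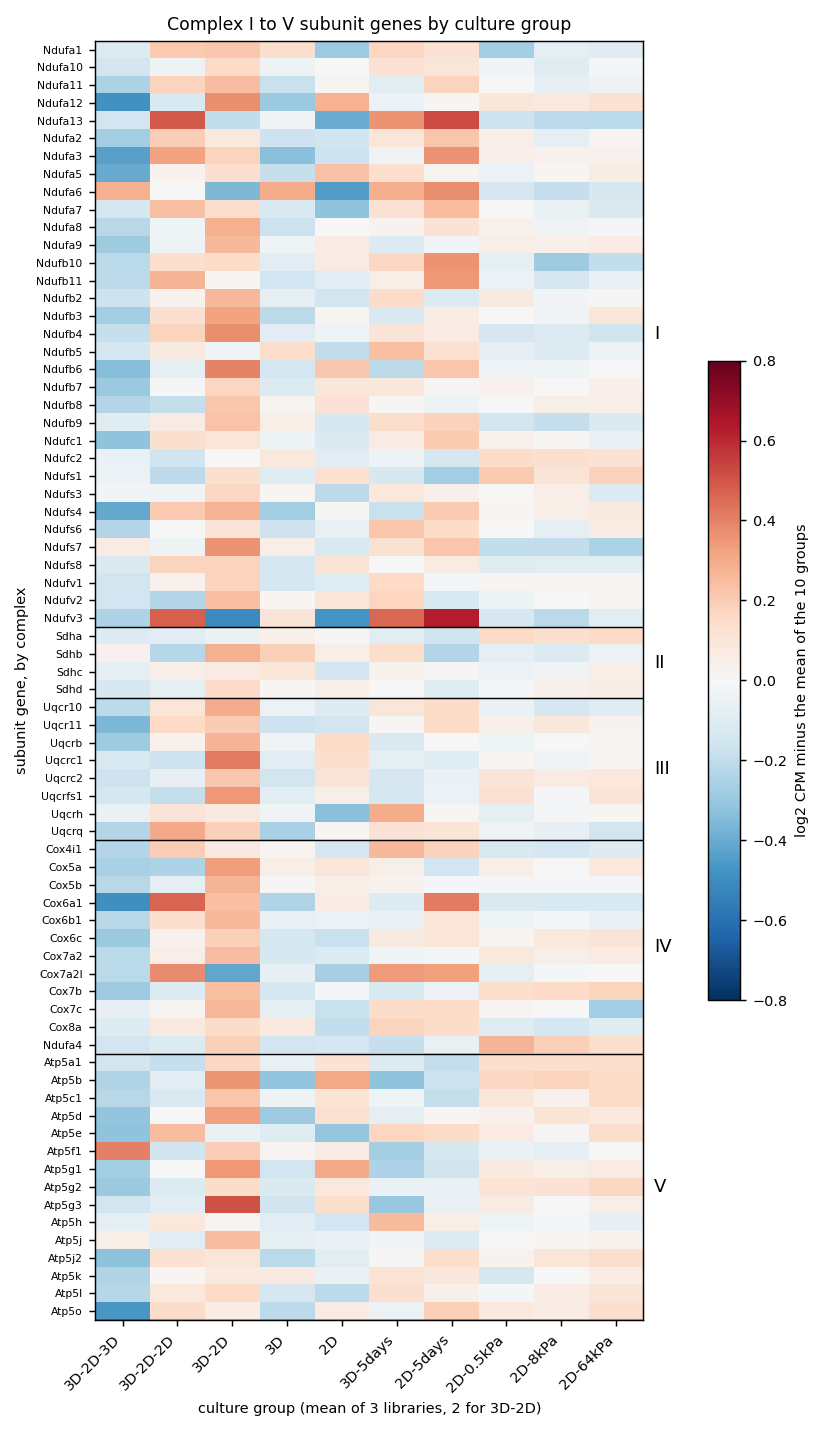
Heat map of 72 tested subunit genes of complexes I to V without the alternative isoforms (rows) in the 10 culture groups (columns). Colour gives the group mean log2 CPM minus the mean of the 10 groups, red above and blue below: the 3D-2D-3D column is mostly blue and the 3D-2D column mostly red, with Ndufa6, Ndufv3 and Cox7a2l the other way in 3D-2D.

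Between 3D and 2D cultures the members split. Of 87, 12 rose and 13 fell (13.8% and 14.9%) by edgeR's quasi-likelihood test at a Benjamini-Hochberg adjusted p under 0.05, where 26.7% of all genes tested rose and 27.3% fell. The median 3D over 2D log2 fold change of the members was -0.03, against 0.03 over all genes. Within complex V none rose and 5 of 15 fell, while complex I was mixed with 5 of 34 higher and 5 lower. With the replicate number as a block, which takes same-numbered libraries as pairs, 7 rose and 5 fell. Without 2D replicate 2, 10 rose and 8 fell. Replicates 1 and 2 alone gave 8 higher and 10 lower and replicate 3 alone 5 higher and 3 lower, and with library totals as the only scaling, which moves the median of all genes to 0.16, 20 rose and 5 fell.

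In 3D-2D, where cells had gone from 3D to 2D, the members were mostly higher than in 3D: 43 of 87 rose and 4 fell (49.4% and 4.6%), against 28.8% of all genes higher and 27.7% lower. The median was 0.27, against -0.02 over all genes. The increase took in 14 of 34 genes of complex I, 6 of 8 of complex III, 9 of 17 of complex IV and 11 of 15 of complex V, and 0 of 4 of complex II. The 4 that fell were Ndufa6, Ndufv3, Cox7a2l and Atp5sl. Leaving out either 3D-2D library leaves 1 in that group, and fewer members and fewer of all genes were then called. The members' median was 0.24 without replicate 1 and 0.28 without replicate 2. Replicates 1 and 2 of both groups alone gave 24 higher and 5 lower, and with library totals as the only scaling, which moves the median of all genes to -0.16, the split was 19 higher and 7 lower. Against 2D, 18 members were higher in 3D-2D and 0 lower (20.7% and 0%), against 6.85% and 7.54% of all genes, with a median of 0.21 against 0.01. None was called in a fit of these 2 groups alone, 10 were called without 2D replicate 2, 2 without 2D replicate 1, 2 without 3D-2D replicate 1 and 1 without 3D-2D replicate 2, while the replicate block, whose numbers do not pair these libraries, called 27 higher and 1 lower.

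The return to 3D gave the widest decrease. In 3D-2D-3D, 55 of 87 members fell and 2 rose relative to 3D-2D (63.2% and 2.3%), against 25% and 24.2% of all genes, and the median was -0.38, against 0.01. Every complex had members that fell: 21 of 34 in complex I, 2 of 4 in complex II, 7 of 8 in complex III, 13 of 17 in complex IV and 10 of 15 in complex V. The 2 that rose were Ndufa6 and Atp5sl. Of the 57 calls, 35 stood under each of the 14 other settings, among them leaving out each library. Against 3D-2D-2D, cells that stayed in 2D for the last step, 37 members were lower in 3D-2D-3D and 2 higher (42.5% and 2.3%), against 20.6% and 19.8% of all genes, with a median of -0.26 against -0.01. The 2 higher ones were Sdhb and Atp5f1. With library totals as the only scaling, which moves the median of all genes to 0.22, the split was 17 higher and 16 lower. The members' median minus that of all genes was -0.25 under both scalings. A scaling shifts all genes nearly alike, so this difference could hardly change and does not decide between the splits. Replicates 1 and 2 of 3D-2D-3D had Xist reads but only 1 and 0 Y-linked reads. Its replicate 3 and all 3D-2D-2D libraries had both. With replicate 3 of 3D-2D-3D alone the members' median was -0.17, against -0.01 over all genes, and fewer members were called. The part of this difference between libraries in the contrast was not tested. These comparisons share libraries (3D-2D enters 3 of them and 3D-2D-3D enters 2), so their directions are not separate evidence.

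**Figure D2:**
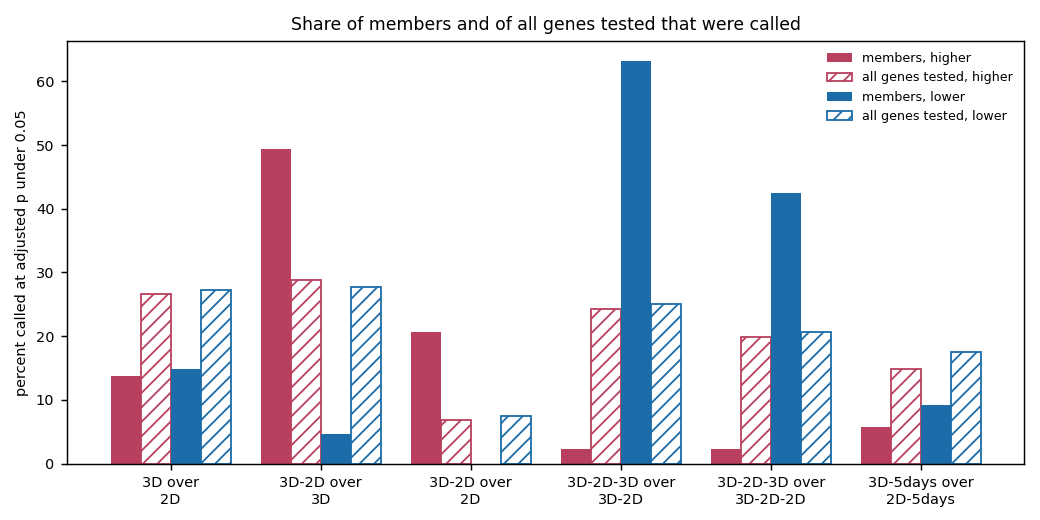
Percent of the 87 tested members (filled bars) and of all 14036 genes tested (hatched bars) called higher (red) or lower (blue) at an adjusted p under 0.05 in 6 comparisons. Members stand above the hatched bars for higher calls in 3D-2D over 3D (49.4%) and over 2D (20.7%). They also do so for lower calls in 3D-2D-3D over 3D-2D (63.2%) and over 3D-2D-2D (42.5%). In 3D over 2D and in 3D-5days over 2D-5days, members stand below the hatched bars in both directions.

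Genes of cell division moved with several of these contrasts. The summed level of 10 proliferation genes was 93 to 102 CPM in 3D-2D-3D, 202 to 211 CPM in 3D-2D-2D, 629 to 883 CPM in 3D-2D, 71.6 to 306 CPM in 3D and 1361 to 1506 CPM in 2D. All 10 fell in 3D-2D-3D relative to 3D-2D (median -4.16), 9 rose in 3D-2D relative to 3D (2.74), and 9 fell in 3D relative to 2D (-3.86), the contrast in which the members' median was -0.03. The part of proliferation in the members' levels was not tested. Macrophage markers (20 genes) summed to 309 to 324 CPM in 3D-2D-3D, 685 to 926 CPM in 3D-2D, 280 to 9939 CPM in 3D and 1363 to 1649 CPM in 2D, with 14 of them lower in 3D-2D than in 3D. Of 12 endothelial markers, 8 were lower and 1 higher in 3D-2D than in 3D (median -2.04). In 3D-2D-3D, 5 were lower and 1 higher than in 3D-2D-2D (-1.19). In 3D-5days, 8 were higher and 1 lower than in 2D-5days (2.56). Their summed level did not always follow these counts. It was 327 to 445 CPM in 3D and 473.5 to 481 CPM in 3D-2D. It was 425 to 599 CPM in 3D-2D-3D and 678 to 728 CPM in 3D-2D-2D. At 5 days it was 347.5 to 478 CPM in 3D-5days and 545 to 764 CPM in 2D-5days. Of the 11 fibroblast markers, 6 were lower in 3D-2D than in 3D (-0.75) and 5 were lower in 3D-2D-3D than in 3D-2D-2D (-0.59). At 5 days, 8 of 10 proliferation genes were lower in 3D-5days (85.6 to 169 CPM, against 184 to 225 CPM in 2D-5days), and macrophage markers summed to 3623 to 13410 CPM in 3D-5days and 787 to 3239 CPM in 2D-5days. The part of these cell types in the members' levels was not tested.

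In 3D-5days, 5 of 87 were higher and 8 lower than in 2D-5days (5.75% and 9.2%), against 14.9% and 17.5% of all genes, with a median of -0.02 against 0.00. The split was 15 higher and 4 lower with library totals as the only scaling, which moves the median of all genes to 0.13, and 7 higher and 7 lower by DESeq2. It was 6 higher and 5 lower with the replicate block, which takes same-numbered libraries as pairs. Single libraries moved the split: it was 2 higher and 14 lower without 2D-5days replicate 1, 3 and 7 without 2D-5days replicate 2, 6 and 4 without 2D-5days replicate 3, 5 and 4 without 3D-5days replicate 2, 2 and 10 without 3D-5days replicate 3, and 2 and 12 in replicates 2 and 3 alone. The 3D effect at 5 days differed from that in the cultures with no stated time for 9 members in a test of the difference itself, 5 of them more positive and 4 more negative at 5 days, against 12.3% and 13.2% of all genes, and for 3 with the replicate block. No member was called between substrates. Between 64 and 0.5 kPa, between 8 and 0.5 kPa and between 64 and 8 kPa, 0 members were called by edgeR and 0 by DESeq2, against 0% of all genes by edgeR, and 1 member in each had an unadjusted p under 0.05 (1.15%, against 1.25%, 0.584% and 1.72% of all genes). All member fold changes between substrates lay between -0.50 and 0.58 on the log2 scale. The summed members were 5571, 5780 and 5589 CPM at 0.5 kPa, 5595, 5619 and 5643 CPM at 8 kPa and 5664, 5601 and 5792 CPM at 64 kPa, so the substrate groups overlapped. With the replicate block, which takes same-numbered libraries as pairs, 0 members were called in each comparison. Of the whole table, 0, 2 and 608 genes were then called between 64 and 0.5 kPa, 8 and 0.5 kPa and 64 and 8 kPa.

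**Figure D3:**
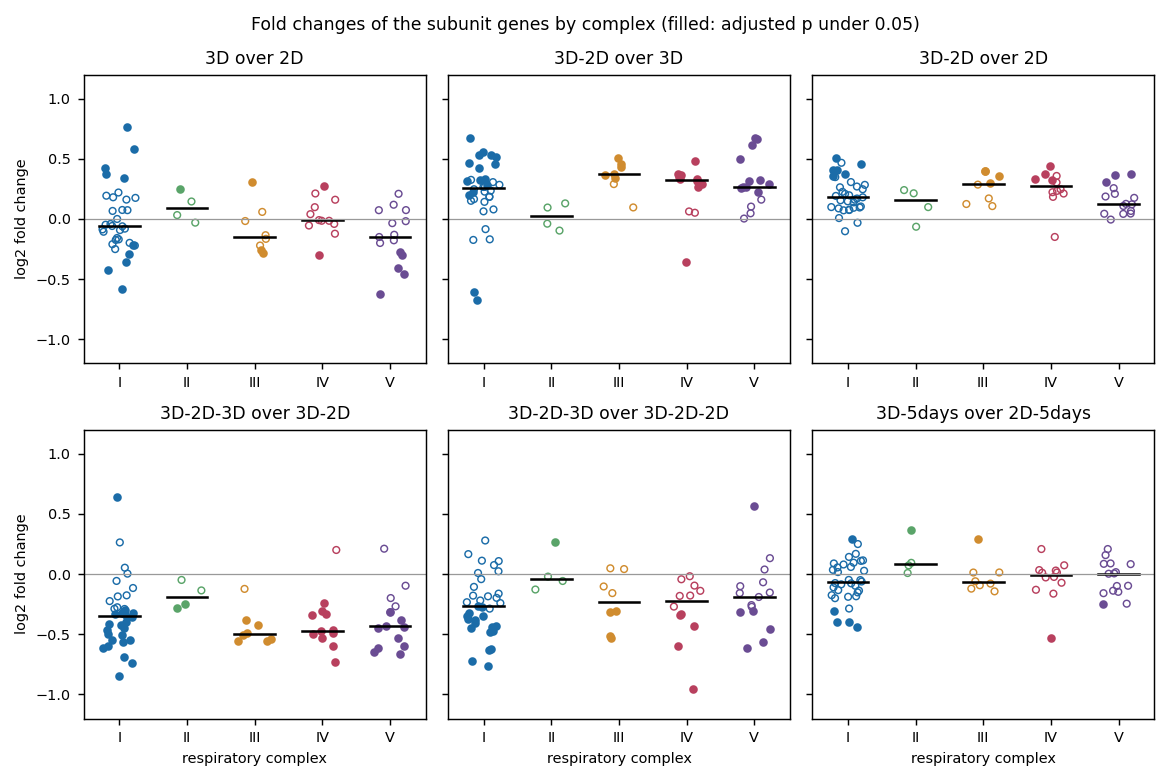
Log2 fold change of each tested subunit gene without the alternative isoforms, by complex, in 6 comparisons, each titled with the group on top of the ratio first. Filled points passed an adjusted p of 0.05 and each bar is the median of a complex: most points lie above 0 for 3D-2D over 3D (median 0.27 over all 87 members) and below 0 for 3D-2D-3D over 3D-2D (-0.38).

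Complex I is the NADH dehydrogenase, with 7 nuclear core subunits that carry the redox centres and many accessory subunits around them. Of the core subunits, 3 of 7 rose in 3D-2D relative to 3D (42.9%, against 28.8% of all genes). In 3D-2D-3D relative to 3D-2D, 2 fell (28.6%, near the 25% of all genes). None was called in 3D-2D-3D relative to 3D-2D-2D, where 17 of the 34 tested complex I genes fell (50%, against 20.6% of all genes). Both core counts are sensitive to single libraries, with 0 called in 3D-2D over 3D without 3D replicate 1, 1 without either 3D-2D library, and 1 to 4 in 3D-2D-3D over 3D-2D. With library totals as the only scaling, 4 core subunits were higher in 3D-2D-3D than in 3D-2D-2D. Ndufs4, an accessory subunit needed for a stable complex I, measured 21.4, 20 and 20.1 CPM in 3D-2D-3D, 31.8, 31.7 and 31.2 CPM in 3D-2D-2D, 33 and 33.2 CPM in 3D-2D and 23.2, 23.5 and 20.7 CPM in 3D. Of these 4 groups, those that ended in 3D did not overlap those that ended in 2D. Ndufs4 rose in 3D-2D relative to 3D (log2 fold change 0.56 ± 0.11 SE, adjusted p = 0.000123). It fell in 3D-2D-3D relative to 3D-2D (-0.69 ± 0.11, adjusted p = 1.27e-05) and to 3D-2D-2D (-0.62 ± 0.10, adjusted p = 2.32e-05). At 5 days it was 23.1, 24.2 and 24.9 CPM in 3D-5days, against 27.5, 32.9 and 34.8 CPM in 2D-5days (-0.40 ± 0.10, adjusted p = 0.00304).

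Ndufa12, an accessory subunit of the arm that takes up electrons, was among the most changed complex I genes. It measured 22.1, 19.5 and 26.7 CPM in 3D-2D-3D, 41.9 and 39.9 CPM in 3D-2D, 26.8, 26.5 and 23.8 CPM in 3D and 34, 39.2 and 42.1 CPM in 2D. The 3D and 2D libraries did not overlap. Ndufa12 was lower in 3D than in 2D (-0.58 ± 0.12, adjusted p = 0.000211), higher in 3D-2D than in 3D (0.67 ± 0.13, adjusted p = 0.000124) and lower in 3D-2D-3D than in 3D-2D (-0.84 ± 0.13, adjusted p = 1.02e-05). Ndufb6, of the membrane arm, also fell in 3D-2D-3D relative to 3D-2D (-0.74 ± 0.11, adjusted p = 1.07e-05). Ndufb6 was lower in 3D-5days than in 2D-5days too (-0.44 ± 0.10, adjusted p = 0.00219), where Ndufa12 was not called.

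Ndufa6 and Ndufv3 went the other way. Ndufa6, an accessory subunit that binds the mitochondrial acyl carrier protein, measured 44.8, 43.3 and 50.1 CPM in 3D-2D-3D, 29.4 and 29.6 CPM in 3D-2D, 41.2, 44.5 and 54.9 CPM in 3D and 26.6, 28.6 and 27.8 CPM in 2D. Every 3D and 3D-2D-3D library was above every 2D and 3D-2D library. It was higher in 3D than in 2D (0.76 ± 0.16, adjusted p = 0.000363), lower in 3D-2D than in 3D (-0.67 ± 0.18, adjusted p = 0.00326) and higher in 3D-2D-3D than in 3D-2D (0.64 ± 0.18, adjusted p = 0.00492). Each of these calls held under every other setting tried. At 5 days the 3D-5days libraries (39.9, 47 and 52.8 CPM) overlapped the 2D-5days libraries (44.9, 53.3 and 48.9 CPM). The highest group mean of Ndufa6 was in 2D-5days, so a high level was not confined to 3D. Ndufa6 was not called in 3D-2D-3D relative to 3D-2D-2D. Ndufv3, an accessory subunit near the NADH site, had 46.2, 49 and 45.3 CPM in 3D, against 31.7, 30.2 and 32 CPM in 2D (0.58 ± 0.17, adjusted p = 0.00553), and was not called in replicate 3 alone (0.52). It was lower in 3D-2D than in 3D (-0.61 ± 0.19, adjusted p = 0.00858), a call lost without 3D-2D replicate 2 (-0.50). It was also lower in 3D-2D-3D than in 3D-2D-2D (35.6, 34.1 and 40.6 CPM, against 60.3, 61.9 and 60.3 CPM, -0.73 ± 0.17, adjusted p = 0.00127), which was not called with 3D-2D-3D replicate 3 alone (-0.57). In that last contrast Ndufa3, an accessory membrane-arm subunit, had the largest fall of complex I (-0.76 ± 0.13, adjusted p = 7.99e-05).

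**Figure D4:**
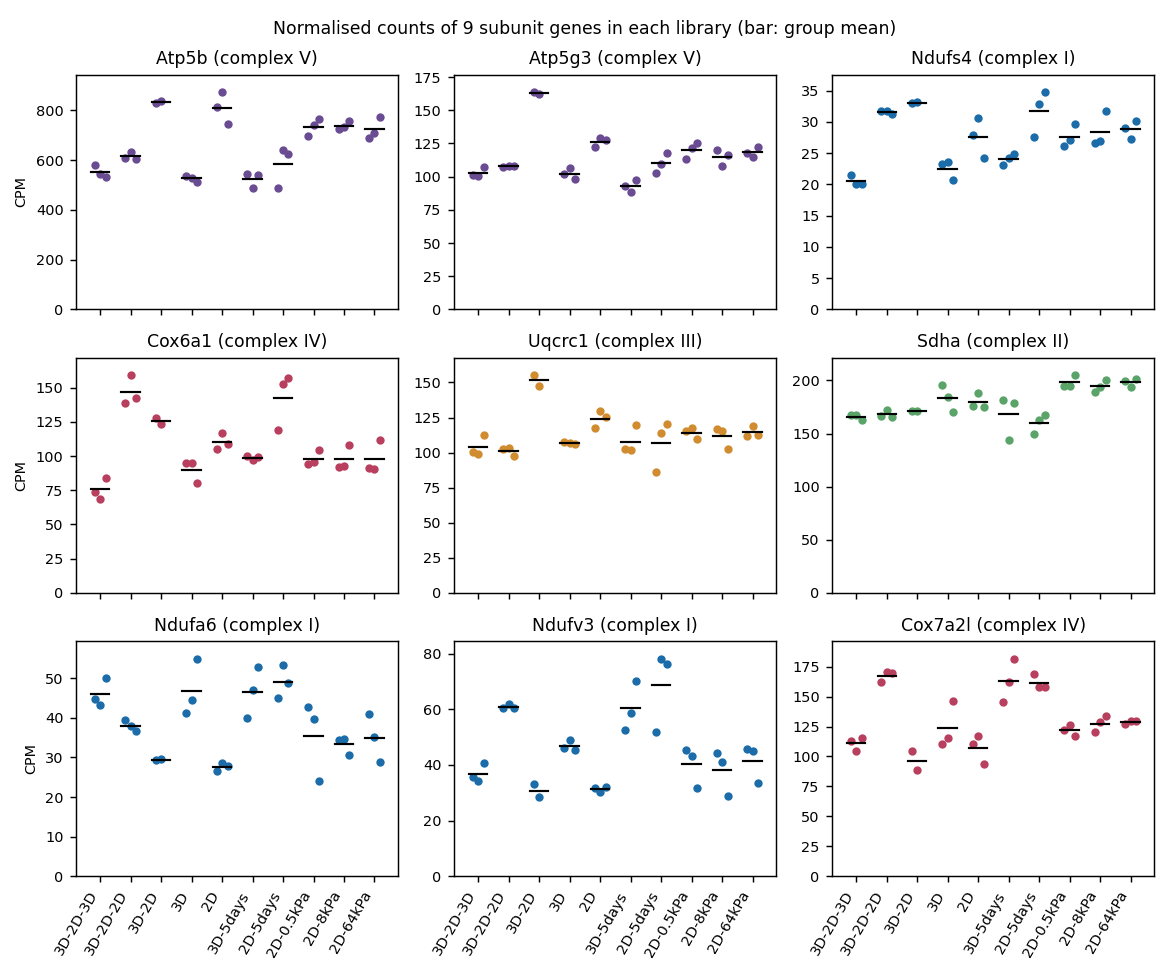
CPM of 9 subunit genes in each library of the 10 groups on linear axes from 0 (points: libraries, bars: group means). Atp5b, Atp5g3 and Ndufs4 are low in 3D and 3D-2D-3D and high in 3D-2D, Ndufa6 is the reverse, and Sdha stays between 144 and 205 CPM.

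Complex II, succinate dehydrogenase, links the citric acid cycle to the chain and had few calls. Sdha, its flavoprotein subunit, measured 167, 168 and 163 CPM in 3D-2D-3D, 166, 173 and 166 CPM in 3D-2D-2D, 172 and 171 CPM in 3D-2D, 196, 184 and 170.3 CPM in 3D and 176, 188 and 175 CPM in 2D. It was called in no comparison in the fit of all groups. With library totals as the only scaling, Sdha (0.21, adjusted p = 0.016) and the membrane anchor Sdhd (0.17, adjusted p = 0.041) turned to higher in 3D-2D-3D than in 3D-2D-2D. Sdhb, the iron-sulfur subunit, measured 64.3, 61.4 and 58.6 CPM in 3D-2D-3D, 52.6, 52.4 and 48.2 CPM in 3D-2D-2D and 73.5 and 72.5 CPM in 3D-2D. These 3 groups did not overlap. Sdhb was lower in 3D-2D-3D than in 3D-2D (-0.25 ± 0.09, adjusted p = 0.03), with the call lost without 3D-2D-3D replicate 3 (-0.24) or 3D-2D replicate 1 (-0.26) or 2 (-0.26). It was higher in 3D-2D-3D than in 3D-2D-2D (0.27 ± 0.08, adjusted p = 0.0141), lost without 3D-2D-2D replicate 3 (0.23). At 5 days it was 70.7, 61.6 and 66 CPM in 3D-5days, against 43.6, 53.2 and 57 CPM in 2D-5days (0.37 ± 0.09, adjusted p = 0.00191), and it was at 0.21 and not called in replicates 2 and 3 alone. Sdhd fell in 3D-2D-3D relative to 3D-2D (-0.28 ± 0.08, adjusted p = 0.00815), lost without 3D-2D replicate 2 (-0.25). Sdhc, the other anchor, was higher in 3D than in 2D (0.25 ± 0.09, adjusted p = 0.021), which the block did not call (adjusted p = 0.116) and which was lost without 2D replicate 2 (0.25) or 3D replicate 1 (0.20) or 2 (0.22).

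Complex III passes electrons from ubiquinol to cytochrome c, and 7 of its 8 genes fell in 3D-2D-3D relative to 3D-2D. Uqcrc1, a core protein, measured 100.4, 99.2 and 113 CPM in 3D-2D-3D, 103, 103 and 97.3 CPM in 3D-2D-2D, 155 and 148 CPM in 3D-2D, 107, 107 and 106 CPM in 3D and 118, 129 and 126 CPM in 2D. The 3D-2D libraries were above all others of these groups. The difference was 0.51 ± 0.10 from 3D (adjusted p = 0.000327), and 3D-2D-3D was lower than 3D-2D (-0.54 ± 0.10, adjusted p = 0.000187). Uqcr11, a small accessory subunit, fell in 3D-2D-3D relative both to 3D-2D (-0.56 ± 0.11, adjusted p = 0.000153) and to 3D-2D-2D (-0.51 ± 0.10, adjusted p = 0.000203). With 3D-2D-3D replicate 3 alone the second was -0.31 and not called. Uqcrq, which lies near the cytochrome b of the complex, fell in 3D-2D-3D relative to 3D-2D-2D (-0.53 ± 0.11, adjusted p = 0.000424) and was at -0.45 and not called with replicate 3 alone. Uqcrh, the hinge protein that contacts cytochrome c1, was 65.5, 67.1 and 75 CPM in 3D, against 50.6, 59.1 and 58.3 CPM in 2D (0.30 ± 0.11, adjusted p = 0.0207). It was not called with the replicate block (adjusted p = 0.0525), without 2D replicate 1 (0.24) or without 3D replicate 3 (0.23).

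Complex IV, cytochrome c oxidase, reduces oxygen. Cox6a1, the form of subunit 6a found in most tissues, had the largest fold change of the complex outside the alternative isoforms in 5 of the 6 comparisons of states, all but 3D-2D with 2D. It measured 73.9, 68.9 and 84.3 CPM in 3D-2D-3D, 139, 159 and 142 CPM in 3D-2D-2D, 128 and 123 CPM in 3D-2D and 94.7, 95.1 and 80.2 CPM in 3D. The 3D-2D-2D libraries were the highest and 3D-2D-3D and 3D the lowest. Cox6a1 fell in 3D-2D-3D relative to 3D-2D-2D (-0.96 ± 0.11, adjusted p = 4.27e-07) and to 3D-2D (-0.73 ± 0.12, adjusted p = 2.89e-05) and was higher in 3D-2D than in 3D (0.48 ± 0.12, adjusted p = 0.0018), calls that held under every other setting. At 5 days it was 99.9, 96.8 and 99.65 CPM in 3D-5days, against 119, 153 and 157 CPM in 2D-5days (-0.53 ± 0.11, adjusted p = 0.000621), with no overlap. Between 3D and 2D the difference was smaller (-0.30 ± 0.11, adjusted p = 0.0249) and was not called with the block (adjusted p = 0.0811), without 2D replicate 2 (-0.25) or without 3D replicate 3 (-0.23). Cox4i1, the usual form of the regulatory subunit 4, was 141, 136 and 154 CPM in 3D-2D-3D, against 192, 202 and 188 CPM in 3D-2D-2D (-0.43 ± 0.08, adjusted p = 0.000102) and 182 and 174 CPM in 3D-2D (-0.31, adjusted p = 0.00458), and the first was not called with replicate 3 alone (-0.33). Cox7a2l, a relative of subunit 7a, was 104 and 88.4 CPM in 3D-2D, against 110.5, 115 and 146 CPM in 3D (-0.36 ± 0.11, adjusted p = 0.0103). That call was lost without 3D-2D replicate 2 (-0.24) or 3D replicate 3 (-0.22). Cox7a2l was also lower in 3D-2D-3D than in 3D-2D-2D (113, 105 and 115 CPM, against 162, 170.3 and 169 CPM, -0.59 ± 0.10, adjusted p = 6.66e-05).

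Complex V, the ATP synthase, had no member that rose in 3D relative to 2D. Its 15 genes summed to 1933, 1856 and 1946 CPM in 3D-2D-3D, 2036, 2130 and 1981 CPM in 3D-2D-2D, 2556 and 2554 CPM in 3D-2D, 1946, 1945 and 1870 CPM in 3D and 2339, 2508 and 2259 CPM in 2D. The 3D libraries were below all 2D libraries. Atp5b, the catalytic beta subunit, measured 579.8, 546 and 533 CPM in 3D-2D-3D, 607, 634 and 604 CPM in 3D-2D-2D, 831 and 838 CPM in 3D-2D, 537, 529 and 514 CPM in 3D and 813, 874 and 744 CPM in 2D. It was lower in 3D than in 2D (-0.62 ± 0.09, adjusted p = 5.34e-06), higher in 3D-2D than in 3D (0.66 ± 0.10, adjusted p = 7.46e-06) and lower in 3D-2D-3D than in 3D-2D (-0.59 ± 0.10, adjusted p = 3.51e-05), and all 3 calls held under every other setting. Between 3D-2D and 2D it differed by 0.04 ± 0.10 (adjusted p = 0.815), and 3D-2D-3D differed from 3D-2D-2D by -0.15 (adjusted p = 0.182), neither of them called. At 5 days it was 543, 488 and 539 CPM in 3D-5days and 487, 642 and 624 CPM in 2D-5days, with overlap and no call (-0.16, adjusted p = 0.189). Replicates 2 and 3 alone, a choice made after seeing the data, called it (-0.30, adjusted p = 0.0138).

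Atp5g3, 1 of the 3 genes for the proton-carrying c-ring subunit, was higher in both 3D-2D libraries than in any other library of the series. It measured 101, 101 and 107 CPM in 3D-2D-3D, 108, 108 and 108 CPM in 3D-2D-2D, 164 and 162 CPM in 3D-2D, 102, 106 and 98.6 CPM in 3D and 122, 129 and 127 CPM in 2D. The highest library outside 3D-2D was at 129 CPM. Atp5g3 was higher in 3D-2D than in 3D (0.67 ± 0.07, adjusted p = 8.42e-08) and than in 2D (0.37 ± 0.07, adjusted p = 0.00219), and lower in 3D-2D-3D than in 3D-2D (-0.66 ± 0.07, adjusted p = 1.41e-07). It was also lower in 3D-5days than in 2D-5days (-0.25 ± 0.07, adjusted p = 0.0057), which the block did not call (-0.21, adjusted p = 0.0706) and which was lost without 2D-5days replicate 3 (-0.18) or 3D-5days replicate 2 (-0.19). Atp5g1, which encodes the same mature c subunit, was lower in 3D than in 2D (-0.46 ± 0.12, adjusted p = 0.00282) and at -0.52 and not called in replicate 3 alone.

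Stalk and peripheral subunits of complex V did not all move together. Atp5o, of the stalk that holds the catalytic head, was 64.5, 58 and 64.2 CPM in 3D-2D-3D, against 89.8, 100.4 and 95.4 CPM in 3D-2D-2D (-0.61 ± 0.10, adjusted p = 5.66e-05). Atp5e, the epsilon subunit of the rotor, was 35.2, 32.1 and 38.9 CPM in 3D-2D-3D, against 52.7, 52.5 and 52 CPM in 3D-2D-2D (-0.57 ± 0.12, adjusted p = 0.000562), and was at -0.42 and not called with 3D-2D-3D replicate 3 alone. Atp5f1, the b subunit of the same stalk as Atp5o, was the exception. It was 185, 177 and 199 CPM in 3D-2D-3D, against 128, 129 and 122 CPM in 3D-2D-2D (0.56 ± 0.08, adjusted p = 7.57e-06), a call that held under every other setting. The highest library outside 3D-2D-3D was at 167 CPM.

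In 3D-2D relative to 2D, the comparison in which no member fell, the largest increases among called members of complexes I, III and IV were those of Ndufa1, Uqcrh, Uqcr10 and Cox7c. Ndufa1, a small membrane subunit of complex I, was 27.9 and 28 CPM in 3D-2D, against 18.3, 19.4 and 21.3 CPM in 2D (0.50 ± 0.11, adjusted p = 0.00418), and was lost without 3D-2D replicate 2 (0.50). Cox7c, a small subunit of complex IV, was 18.9 and 20.6 CPM in 3D-2D, against 13.6, 16 and 14 CPM in 2D (0.44 ± 0.14, adjusted p = 0.0334). Uqcr10, of complex III, was 39.4 and 42 CPM in 3D-2D, against 31, 33.4 and 28.4 CPM in 2D (0.40 ± 0.12, adjusted p = 0.0271). Neither pair of groups overlapped. The call of Cox7c was lost without 2D replicate 1 (0.40) or 3 (0.41) or 3D-2D replicate 1 (0.49) or 2 (0.38), and that of Uqcr10 without 2D replicate 1 (0.40) or 3 (0.34) or 3D-2D replicate 1 (0.43) or 2 (0.35).

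The alternative isoforms differed in depth: Ndufa4l2 had 86 to 1161 reads in each group, while Cox7a1, Cox6a2, Cox4i2, Cox6b2 and Cox8b were below 3 CPM in every library. Cox7a1, the heart and skeletal muscle form of subunit 7a, had 47 reads in the 3 libraries of 3D and 14 in those of 2D: 0.863, 0.573 and 0.625 CPM in 3D, against 0.333, 0.237 and 0.25 CPM in 2D. The libraries did not overlap. It was called higher in 3D (1.32 ± 0.53, adjusted p = 0.0399), and the call was lost without any 1 of the 2D libraries (1.45, 1.26 and 1.24 without replicates 1, 2 and 3) and in DESeq2. In 3D-2D-3D it was at 0.068, 0.045 and 0.161 CPM (8 reads), below the 2 libraries of 3D-2D (0.418 and 0.201 CPM, -1.64 ± 0.66, adjusted p = 0.0435) and the 3 of 3D-2D-2D (0.253, 0.735 and 0.182 CPM, -1.85 ± 0.67, adjusted p = 0.0296). These calls were lost without 3D-2D-3D replicate 1 or 2 (-1.46 and -1.40 from 3D-2D, and -1.65 and -1.58 from 3D-2D-2D), without 3D-2D replicate 1 (-1.03) and without 3D-2D-2D replicate 2 (-1.13). Between 3D-2D and 3D it was not called (-1.10 ± 0.57, adjusted p = 0.102). At 5 days Cox7a1 had 17 reads in 2D-5days and 12 in 3D-5days and was not called. Its highest group mean of the 10 groups was in 2D-5days, so a high level was not confined to 3D. By Pearson correlation of group mean log2 CPM over the 10 groups, the genes most like Cox7a1 were Tmem141 (0.953), Dapk2 (0.91), Abcb9 (0.898), Mpp1 (0.882) and Adam33 (0.882), given as a description of 10 points.

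Cox8b, the muscle form of subunit 8, was too low to test. It had 16, 10 and 19 reads in the 3D libraries, against 0, 0 and 1 in 2D, and 1 read in all of 2D-0.5kPa, 1 in 2D-8kPa and 0 in 2D-64kPa. The other groups held 16 reads in 3D-2D-3D, 13 in 3D-5days, 6 in 3D-2D-2D, 4 in 2D-5days and 3 in 3D-2D. Cardiomyocyte markers (20 genes, 3 of them Cox6a2, Cox7a1 and Cox8b) summed to 70.4 to 211 CPM in 3D with Myh7 and Myl7 at 0, and to 11.3 to 28.8 CPM in 2D with Myl7 at 0. In 3D relative to 2D, 11 of them were tested, Tnnt2 (2.97 ± 0.72) and Cox7a1 rose, Nppb (-3.36 ± 1.16) fell, and the list's median was 0.58. In 3D-2D-3D these markers summed to 35 to 168 CPM and in 3D-2D-2D to 34.5 to 39.8 CPM. Their part in the muscle isoform values was not tested.

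Cox6a2, the muscle partner of Cox6a1, was highest in 3D-2D-2D. It measured 0.205, 0.136 and 0.323 CPM in 3D-2D-3D, against 2.27, 2.45 and 1.46 CPM in 3D-2D-2D (-3.14 ± 0.60, adjusted p = 0.000237), and the call held under every other setting. Ndufa4l2, a hypoxia-inducible relative of the complex IV subunit Ndufa4, was 1.47, 1.27 and 2.74 CPM in 3D-2D-3D, against 23.6, 27.3 and 20.7 CPM in 3D-2D-2D (-3.69 ± 1.02, adjusted p = 0.00607), and was not called with 3D-2D-3D replicate 3 alone (-3.11). Its libraries differed widely at 5 days, with 5, 47.2 and 54.7 CPM in 3D-5days and 4.02, 16.7 and 18.1 CPM in 2D-5days, and on substrates, where replicates 1 and 2 were at 5.83 to 13.3 CPM and replicate 3 at 0.294 to 0.823 CPM. At 5 days it was not called (1.47 ± 0.93, adjusted p = 0.245). The block, which takes same-numbered libraries as pairs, called it (1.38, adjusted p = 0.000846). Cox4i2, the lung form of subunit 4, was 0.273, 0.182 and 0.194 CPM in 3D-2D-3D, against 1.09, 0.612 and 1.27 CPM in 3D-2D-2D (-2.17 ± 0.48, adjusted p = 0.000873). It was also lower than in 3D-2D (1.09 and 0.652 CPM, -1.97 ± 0.49, adjusted p = 0.00206), which was lost without 3D-2D replicate 1 (-1.57).

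Ndufa4l2 and Cox4i2 also serve as markers of pericytes, and the 11 pericyte and smooth muscle markers that hold them summed to 233 to 310.1 CPM in 3D-2D-3D and 430.3 to 457 CPM in 3D-2D-2D, with Higd1b at 0 in both. Of 10 tested, Ndufa4l2, Cox4i2, Myh11 (-3.50 ± 0.60), Notch3 (-1.75 ± 0.22) and Rgs5 were lower in 3D-2D-3D and Cspg4 (5.02 ± 0.55) was higher. Their part in the isoform values was not tested. Cox6b2, known as the testis form of subunit 6b, was at 0.222, 0.668 and 0.497 CPM in 3D-5days, against 1.77, 1.93 and 1.92 CPM in 2D-5days (-1.96 ± 0.49, adjusted p = 0.00338). The 2D-5days libraries were above every other library of the series, and the call held under every other setting.

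**Figure D5:**
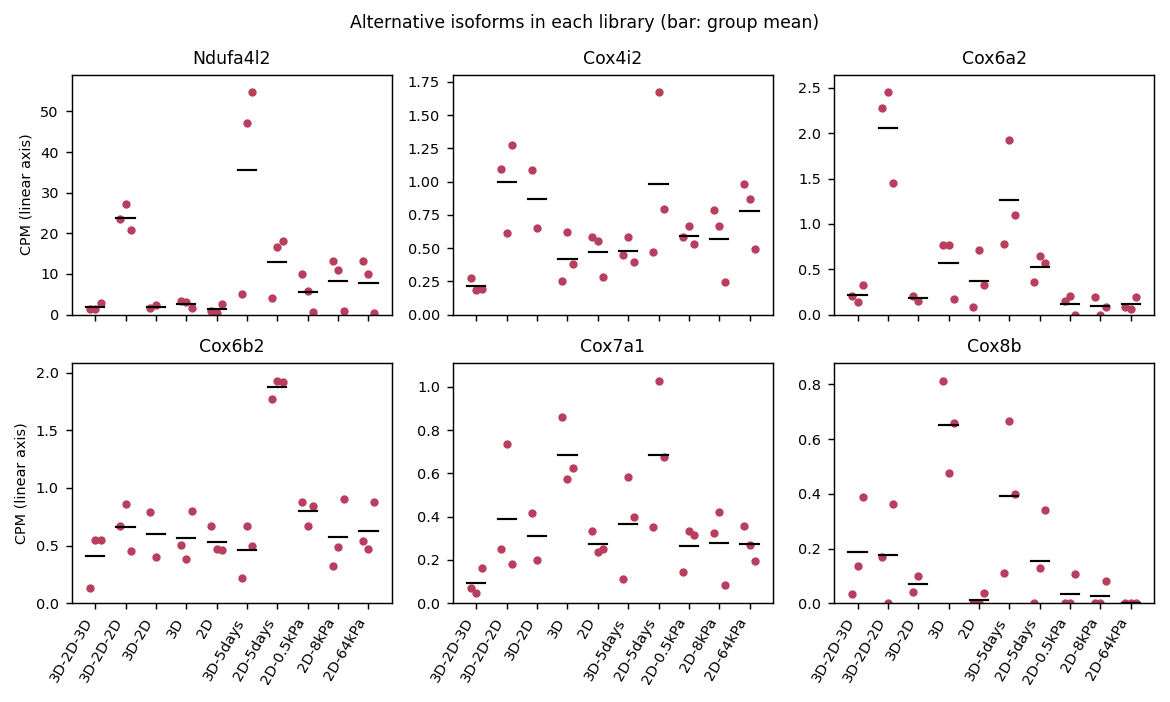
CPM of 6 alternative isoforms in each library of the 10 groups on linear axes that differ between panels (points: libraries, bars: group means). Cox6a2 and Ndufa4l2 stand out in 3D-2D-2D and 3D-5days, Cox6b2 in 2D-5days, and Cox7a1 and Cox8b are highest in 3D or 5-day libraries at under 1.1 CPM.

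Assembly factors within the rule (Uqcc and Sdhaf genes) were called less often than all genes when both directions are taken. Of 7, 2 rose and 0 fell in 3D relative to 2D (28.6% and 0%, against 26.7% and 27.3% of all genes). In 3D-2D relative to 3D, 3 rose and 0 fell (42.9% and 0%, against 28.8% and 27.7%). In 3D-2D-3D relative to 3D-2D, 0 rose and 2 fell (0% and 28.6%, against 24.2% and 25%). In either direction, 54%, 56.5% and 49.2% of all genes were called in these comparisons. Sdhaf2, which loads the flavin onto Sdha, was higher in 3D-2D than in 3D (0.33 ± 0.08, adjusted p = 0.0013), and Sdhaf4, which helps Sdha join Sdhb, was higher in 3D than in 2D (0.64 ± 0.16, adjusted p = 0.00161), both under every other setting.

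Genes of neighbouring mitochondrial functions, from lists outside the rule, are described by their counts. Of all genes tested, 26.7% rose and 27.3% fell in 3D relative to 2D, and 28.8% and 27.7% in 3D-2D relative to 3D. The shares were 24.2% and 25% in 3D-2D-3D relative to 3D-2D, and 19.8% and 20.6% relative to 3D-2D-2D. Of 77 mitochondrial ribosome genes, 4 rose and 39 fell in 3D relative to 2D (5.19% and 50.6%, median -0.31, and 1 and 20 with the block). In 3D-2D relative to 3D, 62 rose and 1 fell (80.5% and 1.3%, median 0.54). In 3D-2D-3D relative to 3D-2D, 1 rose and 60 fell (1.3% and 77.9%, median -0.54). In 3D-2D-3D relative to 3D-2D-2D, where the calls of subunit genes were mostly lower, they gave 6 higher and 10 lower (7.79% and 13%, median -0.04). Without 3D-2D-2D replicate 2 they gave 5 and 5. Of 17 citric acid cycle and pyruvate dehydrogenase genes, 1 rose and 8 fell in 3D relative to 2D (5.88% and 47.1%). In 3D-2D relative to 3D, 8 rose (47.1%), and in 3D-2D-3D relative to 3D-2D, 10 fell (58.8%). Of 14 electron carrier genes the counts in the same comparisons were 1 and 5 (7.14% and 35.7%), 8 and 0 (57.1% and 0%), and 0 and 8 (0% and 57.1%). Of 36 assembly factors outside the rule they were 3 and 10 (8.33% and 27.8%), 15 and 1 (41.7% and 2.78%), and 1 and 15 (2.78% and 41.7%). The share of these assembly factors that fell in 3D relative to 2D was near that of all genes. With the block, 3D relative to 2D gave 0 and 2 electron carrier genes and 1 and 6 assembly factors.

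Cycs, cytochrome c itself, measured 57.2, 51.1 and 48 CPM in 3D-2D-3D, 43.9, 40.4 and 40.2 CPM in 3D-2D-2D, 112 and 125 CPM in 3D-2D, 50, 45.4 and 31.9 CPM in 3D and 91.1, 97.7 and 100.1 CPM in 2D. It was lower in 3D than in 2D (-1.18 ± 0.12, adjusted p = 4.89e-08), higher in 3D-2D than in 3D (1.48 ± 0.13, adjusted p = 7.07e-09) and lower in 3D-2D-3D than in 3D-2D (-1.18 ± 0.13, adjusted p = 2.1e-07). Idh3a, the catalytic subunit of the NAD-linked isocitrate dehydrogenase of the cycle, followed the same order (-1.32 ± 0.13, 1.78 ± 0.14 and -1.37 ± 0.14). So did Pdha1, which feeds pyruvate carbon into the cycle (-0.93 ± 0.09, 0.69 ± 0.10 and -0.71 ± 0.10). Pdha1 was also lower in 3D-5days than in 2D-5days (-0.94 ± 0.09, adjusted p = 3.07e-08) and in 3D-2D-3D than in 3D-2D-2D (-0.88 ± 0.09, adjusted p = 6.68e-08). These calls of Cycs, Idh3a and Pdha1 held under every other setting.

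Regulators of mitochondrial genes did not share a direction. Of 18, 4 rose and 6 fell in 3D relative to 2D (22.2% and 33.3%, near the 26.7% and 27.3% of all genes). Ppargc1a, the coactivator that drives mitochondrial biogenesis in muscle and fat, had 3.1, 2.67 and 3.75 CPM in 3D (225 reads), against 0, 0.079 and 0.071 CPM in 2D (3 reads), a ratio of 57 with an exact 95% interval of 19.2 to 278 for counting error only. It was called (adjusted p = 3.16e-08). It was lower in 3D-2D than in 3D (0.167 and 0.15 CPM, -4.25 ± 0.55, adjusted p = 1.28e-06) and higher in 3D-2D-3D than in 3D-2D (1.16, 1.32 and 1.32 CPM, 2.93 ± 0.55, adjusted p = 0.00013). Its relative Pprc1, induced when cells enter growth, went the other way: 55.1, 56.3 and 51 CPM in 3D, against 102, 102 and 113 CPM in 2D (-0.97 ± 0.10, adjusted p = 6.17e-08), with 1.03 ± 0.11 in 3D-2D relative to 3D and -0.60 ± 0.11 in 3D-2D-3D relative to 3D-2D. All of these calls held under every other setting.

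Members with and without the NRF1 motif of the promoters above were counted apart. In 3D-2D relative to 3D, 10 rose and 1 fell of 19 tested members with the motif, and 28 rose and 3 fell of 54 without it. In 3D-2D-3D relative to 3D-2D, 12 of 19 with it fell (median -0.45) and 34 of 54 without it (-0.39). Of members with the ETS motif, 10 of 19 rose in 3D-2D relative to 3D and 11 of 19 fell in 3D-2D-3D relative to 3D-2D (median -0.29), and of those without it 28 of 54 rose and 35 of 54 fell (-0.44). Over all genes tested, 28.8% rose and 27.7% fell in 3D-2D relative to 3D. In 3D-2D-3D relative to 3D-2D, 25% of all genes fell. None of these counts was tested.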

How the data were processed

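RNA-seq of 29 libraries in 10 groups was analysed from the read counts per gene that the authors deposited as 1 table. Per the submitters' processing notes, the tools were TopHat, Bowtie, HTSeq and MACS2 with build mm10, without roles or versions, and no source used here gives the annotation or strand setting. The 5 summary lines of the table were left out of the totals. Each column was matched to a sample by its title.

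Genes with enough counts for edgeR's filterByExpr (14036 of 24421) were fitted over all 29 libraries and 10 groups with TMM scaling, edgeR 4.0.16 quasi-likelihood tests (R 4.3.3, limma 3.58.1) and Benjamini-Hochberg adjustment over all genes tested, with calls at 0.05. TMM factors ran from 0.868 to 1.1. CPM are counts scaled by TMM library size and log2 CPM use a prior count of 2. The 3D effect at 5 days was set against that with no stated time as a contrast of 4 groups. CPM were not compared between genes, as lengths were not used. DESeq2 1.42.0 was an alternative. The fitting step was tested on simulated data. Intervals cover counting error only, and the members' library totals limit their precision.

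The members and lists were chosen with earlier results of these data known. Named in each comparison were up to 2 called members with the largest rise and 2 with the largest fall per complex, all complex II subunits, each alternative isoform, the most abundant member per complex and up to 3 called genes per further list. Ndufs4 in both 3D-2D-3D comparisons, Cox7a2l in that with 3D-2D-2D, Sdhaf2, Sdhaf4 and the marker genes were named after their values were seen. Lists were described by counts, with no set test. Of the members, 1 is counted but not reported here by name. The mitochondrially encoded list had 0 genes in the table. The list of 7 uncoupling and dynamics genes gave 2 higher and 1 lower in 3D relative to 2D (28.6% and 14.3%, against 26.7% and 27.3% of all genes).

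Same-numbered libraries were taken as pairs where the correlation of their deviations from the group means was over 0.1 in every pair: 3D with 2D (0.141 to 0.232), 3D-5days with 2D-5days (0.288 to 0.572) and the substrates (0.191 to 0.753). It was not in comparisons with 3D-2D or 3D-2D-3D (-0.127 to 0.131). Some libraries taken as pairs correlated better with a library of another number. Examples were 3D with 2D replicate 1 (0.141, against 0.165), 5-day replicate 2 (0.288, against 0.317) and 64 with 0.5 kPa replicate 2 (0.191, against 0.53). Others correlated best with their own number, such as replicate 3 of the substrates (0.662 to 0.753). The numbers may therefore not mark pairs, and the labels do not say. Alternatives were another scaling, filters, DESeq2, the groups compared alone, the replicate block, each library left out, subsets of libraries, and the most alike libraries summed.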

Additional observations from a re-analysis of the deposited data

Results flagged for a closer look

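The difference between the 3D effect at 5 days (3D-5days minus 2D-5days) and the 3D effect with no stated time (3D minus 2D), on the log2 scale, passed edgeR's quasi-likelihood test with Benjamini-Hochberg adjustment for 9 of 87 members, against 25.5% of all genes. It was 0.46 for Atp5b (adjusted p = 0.00976), 0.31 for the rotor subunit Atp5c1 (0.0292), 0.52 for Ndufa12 (0.0229), 0.54 for Ndufa5 (0.0441) and 0.36 for Ndufs1 (0.0112), all more positive at 5 days. It was -0.84 for Ndufa6 (0.00898), -0.76 for Ndufv3 (0.0199), -0.56 for Ndufa13 (0.0178) and -2.08 for Cox6b2 (0.0261). With the block, Atp5b was at 0.47 (adjusted p = 0.106), Atp5c1 at 0.30 (0.121), Ndufa12 at 0.52 (0.0649) and Cox6b2 at -2.14 (0.0538), none of them called. Ndufa13 (-0.55, adjusted p = 0.0536) and Ndufs1 (0.36, adjusted p = 0.0616) were not called with the block either, and Ndufa5, Ndufa6 and Ndufv3 were. Leaving out 1 library gave 5 to 14 calls, with 14 without 2D-5days replicate 1 and 5 without 2D-5days replicate 2 or 3. Of the calls lost without single libraries, Ndufa5 was at 0.47 to 0.57, Atp5c1 at 0.26 to 0.29, Ndufa12 at 0.41 to 0.50, Cox6b2 at -2.02 to -1.69 and Ndufv3 at -0.72 to -0.67. Ndufa13 was lost without 2D-5days replicate 2 (-0.47), 3D replicate 3 (-0.47) or 3D-5days replicate 2 (-0.50), and Ndufs1 without 2D-5days replicate 2 (0.28). The cause was not tested.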

How the results depend on the processing

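Of the members called in the fit of all groups, none changed sign under any alternative. Calls kept under every alternative were 4 of 25 in 3D over 2D, 16 of 47 in 3D-2D over 3D, 0 of 18 in 3D-2D over 2D, 35 of 57 in 3D-2D-3D over 3D-2D, 8 of 39 in 3D-2D-3D over 3D-2D-2D, 1 of 13 at 5 days and 0 of 9 in the difference between the 3D effects. In 3D over 2D, 14 members were called in the groups compared alone, 12 with the replicate block, 8 in replicate 3 alone and 10 with the most alike libraries summed. In 3D-2D over 3D, 26 were called with library totals as the only scaling (median of all genes -0.16), 29 with no filter, 31 in the groups alone, 29 in replicates 1 and 2 alone and 31 with libraries summed. In 3D-2D over 2D, 10 were called with no filter, 0 in the groups alone and 28 with the replicate block, where the numbers share only a label. In 3D-2D-3D over 3D-2D-2D, 8 were called with 3D-2D-3D replicate 3 alone, chosen after seeing the data, and 15 with libraries summed. At 5 days, 3 were called in the groups alone and 2 with libraries summed. The difference between the 3D effects gave 4 in the groups alone, 3 with the replicate block and 0 with libraries summed. Leaving out each library gave 18 to 24 calls in 3D over 2D, 25 to 42 in 3D-2D over 3D, 1 to 13 in 3D-2D over 2D, 41 to 63 in 3D-2D-3D over 3D-2D, 26 to 39 in 3D-2D-3D over 3D-2D-2D, 9 to 16 at 5 days, 0 to 0 on substrates and 5 to 14 for the difference. Sdha (0.21) and Sdhd (0.17) in 3D-2D-3D over 3D-2D-2D changed sign with library totals alone. In 3D over 2D the split was 12 higher and 7 lower with no filter. The cause of these changes was not tested, except that fewer libraries leave fewer degrees of freedom. Where the numbers do not pair the libraries, the block called 50 higher and 9 lower in 3D-2D over 3D, 4 higher and 69 lower in 3D-2D-3D over 3D-2D and 3 higher and 34 lower in 3D-2D-3D over 3D-2D-2D. Depth limits the low isoforms, above all Cox7a1 and Cox8b.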
